A study of Mus musculus with 8 samples.

Results

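Expression of 9 genes of tissue macrophages and osteoclasts was examined in DC-restricted progenitors (CDPs) of mouse bone marrow (BM). The genes were C1qa, C1qb, C1qc, Vcam1, Hmox1, Slc40a1, Mrc1, Axl and Acp5. The C1q genes and Acp5 were selected on their measured counts, which were uneven between libraries of the high fat diet. Their values are therefore a description, and no test is given for them. The members were found in the deposited table of gene counts by matching Ensembl identifiers to symbols of GENCODE vM21 (GRCm38), and all 9 were among its 16119 genes. Vcam1, Hmox1, Slc40a1, Mrc1 and Axl were added as genes of the same cell types, and for these the diets were compared.

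CDPs are committed progenitors of DCs. They were sorted as Lin-, c-kit intermediate, Sca1 low, CD115+ and Flt3+ cells, and 50000 cells gave each library. The mice were C57BL/6 in the labels and, according to the methods, males of C57BL/6J background. HFD mice (labelled DIO) received 60 kcal% fat and CF mice (labelled DIO-Control) received 10 kcal% fat. The labels give 16 weeks of feeding for HFD, where the methods give 16 weeks as the age, and they call CF an age- and diet-matched control although its diet was the other one. No other treatment is named, there were 4 libraries per diet, and the sources do not state how many mice went into each. The groups differed by diet, and a bulk library of sorted cells cannot tell fewer cells of a type from less RNA per cell.

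Macrophages that live in tissues clear dying cells, old erythrocytes and debris. In BM they sit at the centre of erythroblastic islands, where they take up the nuclei that erythroblasts expel and return iron from heme. C1q starts the classical pathway of complement and marks dying cells for uptake. It is made of A, B and C chains, the products of C1qa, C1qb and C1qc, and macrophages are a main source of it. Osteoclasts are cells of the same myeloid descent that resorb bone, for which they secrete acid, proteases and phosphatases.

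Total counts ranged from 28203651 to 48409689 per library. Values are given as CPM, counts relative to the depth of the library, scaled by library size and the TMM factors of edgeR, which correct for differences in RNA composition. The genes of the sort were found in every library. Csf1r, which encodes CD115, had 79.4 to 133 CPM, and Kit had 34.2 to 53.6 CPM. Flt3 had 227 to 378 CPM in 7 libraries and 88.8 CPM in HFD replicate 1. This library stood apart in other ways too. S100a8, an abundant neutrophil transcript, had 5155 CPM there, against 245 to 1778 CPM in the other libraries. Hba-a1, a globin gene of erythroid cells, had 54.8 CPM there and at most 19.6 CPM elsewhere. The fold changes of the 9 genes, apart from C1qa, and the list medians below are therefore given with and without HFD replicate 1. Where HFD replicate 1 was the highest HFD library, leaving it out favours a lower value in HFD.

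C1qa, C1qc and C1qb lie next to each other on the minus strand of chromosome 4. C1qa (ENSMUSG00000036887) spans 136895917 to 136898803, C1qc (ENSMUSG00000036896) 136889804 to 136893065 and C1qb (ENSMUSG00000036905) 136880129 to 136886187. Acp5 (ENSMUSG00000001348), for tartrate-resistant acid phosphatase of osteoclasts, lies on the minus strand of chromosome 9 from 22126727 to 22135711 and overlaps the non-coding gene 6530413G14Rik on the other strand. The sequences before the starts of C1qb, C1qc and Acp5 are shown because both C1q genes had their peak in the same library and Acp5 had its peak in another. They come from RefSeq (GRCm38.p6), which gave windows for 5 of the 9 genes, and are written 5′ to 3′ on the minus strand, at chr4:136886201-136886450 for C1qb, chr4:136893066-136893164 for C1qc and chr9:22135747-22135996 for Acp5. Capitals mark GAGGAA, the core of sites for the myeloid factor PU.1, TGCTGA, a half-site of MAF factors, and TCATGTG, an M-box of MITF, on either strand.
C1qb: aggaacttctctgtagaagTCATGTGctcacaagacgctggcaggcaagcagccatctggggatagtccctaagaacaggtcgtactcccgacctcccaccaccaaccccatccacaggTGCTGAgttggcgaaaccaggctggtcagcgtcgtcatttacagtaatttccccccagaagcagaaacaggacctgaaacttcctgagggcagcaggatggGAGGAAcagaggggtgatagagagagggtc
C1qc: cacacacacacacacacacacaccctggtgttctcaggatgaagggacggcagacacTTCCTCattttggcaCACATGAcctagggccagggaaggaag
Acp5: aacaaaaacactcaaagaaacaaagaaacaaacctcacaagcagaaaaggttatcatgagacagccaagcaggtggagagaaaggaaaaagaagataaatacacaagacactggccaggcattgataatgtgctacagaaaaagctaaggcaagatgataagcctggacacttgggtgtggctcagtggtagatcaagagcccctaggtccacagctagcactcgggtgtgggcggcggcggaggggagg

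Of the C1qc window, only the 99 bases before the outermost annotated start of the gene are printed, and the rest lies within the gene as given above. Over the whole windows of 250 bases before the RefSeq start, C1qb and C1qc each held 1 GAGGAA and 1 TCATGTG. Among 32851 windows of the same length from all genes, 23.3% held GAGGAA and 3.25% held TCATGTG. The half-site TGCTGA was in the window of C1qb and in 16.1% of all windows. The windows were also searched for TGANTCA (AP-1) and CACGTG (an E-box), present in 6.75% and 6.02% of all windows and in none of the C1qb, C1qc and Acp5 windows. In the Acp5 window shown, none of the 5 motifs was found, and a window at an inner start of Acp5 held 1 TCATGTG. These are matches of letters only, and binding was not measured. All 5 motifs were searched on both strands, and no matches overlapped in the sequences shown.

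The C1q genes were close to the limit of detection. C1qa received 47, 22, 0 and 0 counts in HFD replicates 1 to 4 and 8, 9, 0 and 0 in CF replicates 1 to 4. C1qb received 75, 22, 0 and 19 counts in HFD and 0, 15, 8 and 0 in CF. C1qc received 102, 44, 8 and 12 counts in HFD and 0, 22, 10 and 2 in CF. All 3 genes were thus highest in HFD replicate 1 and second in HFD replicate 2, while the other libraries of both diets overlapped. A count of 0 allows up to 3 counts, which is 0.0728 to 0.0945 CPM in the libraries where C1qa was at 0 (for counting error only).

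In HFD replicate 1 this came to 1.51 CPM for C1qa (95% exact Poisson interval 1.11 to 2.01), 2.41 CPM for C1qb (1.89 to 3.02) and 3.27 CPM for C1qc (2.67 to 3.97). In HFD replicate 2 the values were 0.692 CPM (0.434 to 1.05) for both C1qa and C1qb and 1.38 CPM (1.01 to 1.86) for C1qc, below the intervals of replicate 1. In CF replicate 2, the highest CF library, C1qc had 0.70 CPM (0.439 to 1.06). Summed, the 3 C1q genes had 224 and 88 counts in HFD replicates 1 and 2 and at most 46 in any other library. C1qc took 38.7% to 55.6% of these in the 5 libraries with 18 or more. HFD replicate 1 alone supplied 68.5% of the summed HFD CPM of C1qa, 67.6% of that of C1qb and 63.5% of that of C1qc.

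C1qc averaged 1.29 ± 1.43 CPM (SD, n = 4) over the HFD libraries and 0.267 ± 0.320 CPM (SD, n = 4) over the CF libraries. HFD exceeded CF by 2.29 ± 1.20 for C1qc (log2 fold change ± standard error from edgeR), and by 1.25 without HFD replicate 1. For C1qb the log2 fold change was 2.31 ± 1.42, and 1.11 without this library. C1qb and C1qc passed the filter on low counts through 3 HFD and 1 CF libraries each. C1qa reached the cut in 2 HFD and 0 CF libraries and did not pass, and without a filter its log2 fold change was 2.12 ± 1.68.

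**Figure D1:**
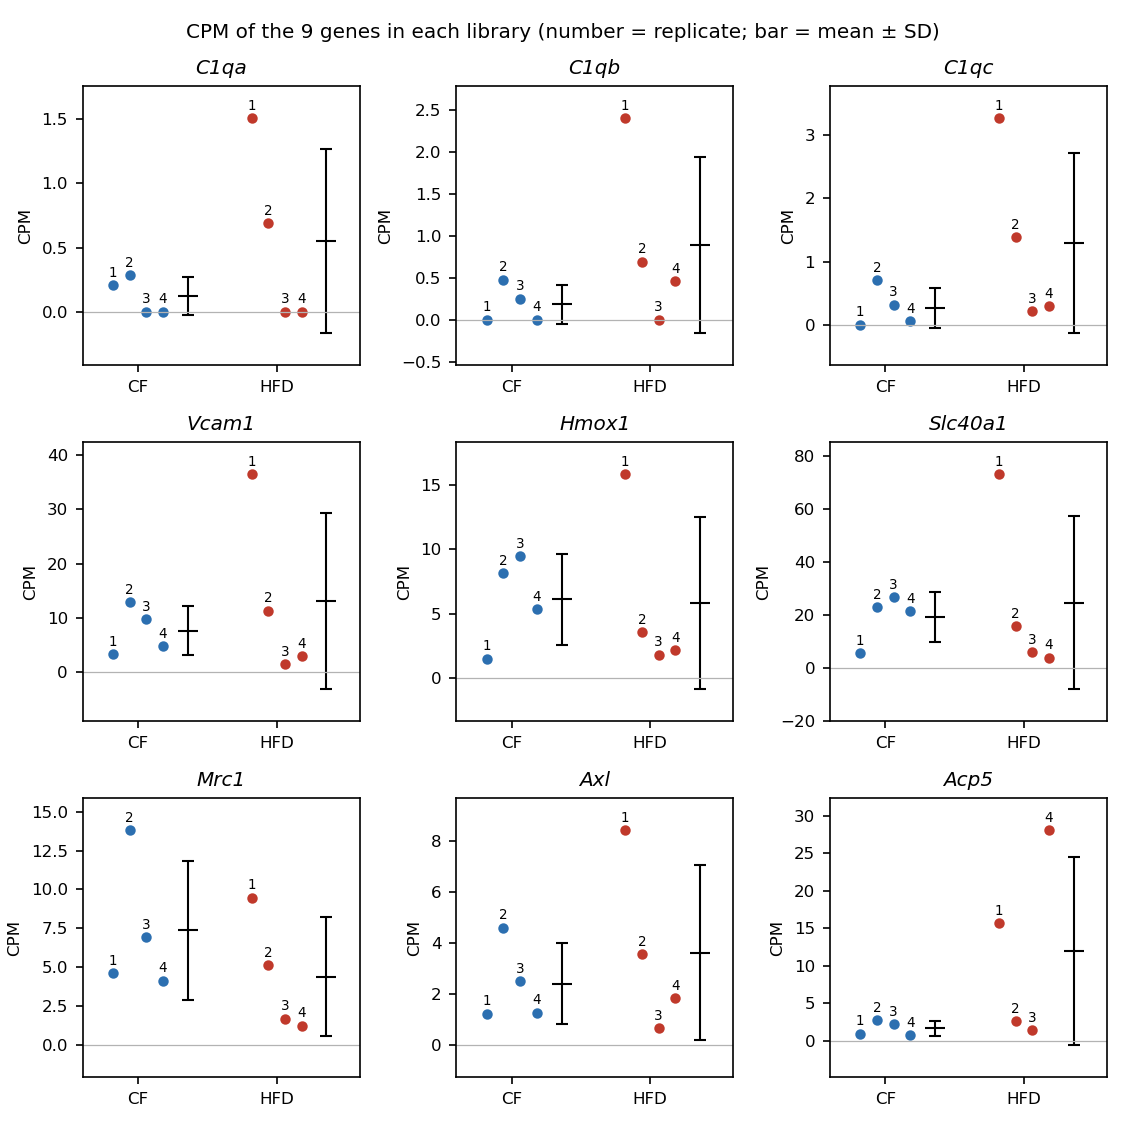
CPM of the 9 genes (y axes, linear, 1 panel per gene) in 4 CF (blue) and 4 HFD (red) libraries, numbered by replicate, with the mean ± SD beside them (bars below 0 come from the SD). HFD replicate 1 was the highest library for 7 genes, CF replicate 2 for Mrc1 and HFD replicate 4 for Acp5.

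Vcam1 encodes an adhesion molecule that holds erythroblasts and progenitors to macrophages and stroma through the integrin of Itga4 and Itgb1. It (ENSMUSG00000027962) lies on the minus strand of chromosome 3 from 116109949 to 116129688, with the antisense gene Gm43109 on the other strand. HFD replicates 1 to 4 had 36.4, 11.3, 1.5 and 3.03 CPM of Vcam1, and CF replicates 1 to 4 had 3.33, 12.9, 9.73 and 4.78 CPM. HFD replicate 1 was 2.81 times the next library, HFD replicates 3 and 4 were below all CF libraries, and the diets overlapped. Fitted with edgeR, Vcam1 was 0.76 ± 0.90 (log2 fold change ± standard error) in HFD against CF, with an adjusted p = 0.91, and -0.55 without HFD replicate 1 (adjusted p = 0.77). Between the highest and the lowest library, Vcam1 differed 24.4 times within HFD and 3.88 times within CF.

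Hmox1 and Slc40a1 serve the recycling of iron. Hmox1 encodes the heme oxygenase that opens the heme ring, and Slc40a1 encodes ferroportin, through which the freed iron leaves the cell. Hmox1 (ENSMUSG00000005413, chromosome 8, plus strand, 75093621 to 75100589) had 15.8, 3.56, 1.81 and 2.16 CPM in HFD replicates 1 to 4 and 1.5, 8.14, 9.48 and 5.35 CPM in CF replicates 1 to 4. Slc40a1 (ENSMUSG00000025993, chromosome 1, minus strand, 45908068 to 45926523) had 72.9, 15.7, 5.90 and 3.81 CPM in HFD and 5.50, 23.0, 26.6 and 21.4 CPM in CF. Both had the same order in most libraries. HFD replicate 1 was highest, CF replicates 2, 3 and 4 followed, and HFD replicates 3 and 4 and CF replicate 1 were low. The root mean square distance between their patterns over the 8 libraries was 0.42 on the log2 scale, the smallest of any pair of the 9 genes. By edgeR, the log2 fold change of Hmox1 came to -0.070 ± 0.78 (adjusted p = 0.99) and that of Slc40a1 to 0.36 ± 0.90 (adjusted p = 0.96). Scaled by the totals without TMM factors, Hmox1 was at 0.061, and the median over all genes shifted from 0.055 to 0.25.

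Single libraries decided these values. Without HFD replicate 1, the log2 fold change was -1.29 for Hmox1 and -1.18 for Slc40a1, and neither was called (edgeR). HFD replicate 1 was the highest and CF replicate 1 the lowest of 8 libraries for Hmox1. With both left out, which was tried after the data were seen, Hmox1 was -1.61 and Slc40a1 was -1.49. Since this choice removes the extremes of both diets and so favours a lower value in HFD, these are descriptions, with no test.

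Mrc1 and Axl encode receptors for uptake. Mrc1 is the mannose receptor CD206, which binds glycoproteins with exposed mannose, and Axl is a TAM receptor kinase that recognizes dying cells through its ligand Gas6. Mrc1 (ENSMUSG00000026712, chromosome 2, plus strand, 14229392 to 14332057, with Mir511 inside it) had 9.47, 5.16, 1.71 and 1.26 CPM in HFD replicates 1 to 4 and 4.63, 13.8, 6.93 and 4.13 CPM in CF replicates 1 to 4. It was highest in CF replicate 2 and, like Vcam1 and Slc40a1, low in HFD replicates 3 and 4. In edgeR, Mrc1 had a log2 fold change of -0.75 ± 0.66 (adjusted p = 0.85), which was -1.45 without HFD replicate 1 (adjusted p = 0.32) and stayed below 0 in all 19 settings, from -1.62 to -0.25. Axl (ENSMUSG00000002602, chromosome 7, minus strand, 25757273 to 25788705) had 8.44, 3.59, 0.656 and 1.84 CPM in HFD and 1.24, 4.61, 2.52 and 1.27 CPM in CF. Its libraries were ordered much as those of Vcam1, at a distance of 0.43. For Axl, edgeR gave 0.59 ± 0.74 (log2 fold change ± standard error, adjusted p = 0.91), and -0.25 without HFD replicate 1.

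Acp5 had a pattern of its own. HFD replicates 1 to 4 had 15.7, 2.61, 1.39 and 28.1 CPM, from 488, 83, 53 and 1158 counts. CF replicates 1 to 4 had 0.930, 2.74, 2.17 and 0.702 CPM, from 36, 86, 69 and 27 counts. The 2 high HFD libraries lay above all CF libraries, and the other 2 within the CF range. HFD replicate 4 held 58.8% of the summed HFD CPM and HFD replicate 1 held 32.8%. In the other 8 genes, HFD replicate 4 held at most 13%. Acp5 averaged 11.9 ± 12.6 CPM (SD, n = 4) over the HFD libraries and 1.64 ± 0.978 CPM (SD, n = 4) over the CF libraries. The fitted log2 fold change was 2.88 ± 0.95, and it was 1.96 without HFD replicate 4 and 2.73 without HFD replicate 1.

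Of the 5 genes for which the diets were compared, edgeR called 0 at an adjusted p below 0.05, against 0.423% of the 15837 genes tested, which were all lower in HFD. At an unadjusted p below 0.05 there were also 0 of the 5, against 8.56% of all genes (3.22% higher and 5.34% lower in HFD), and 0 were called by DESeq2, which called 3.58% of all genes, by limma voom, which called 70 of the 15837, and by a linear model for each gene, which called 0 of all genes and so has no bearing on the 5. Without HFD replicate 1, edgeR called 0 of the 5 against 1.26% of all genes, and 1 of the 5, Mrc1, had an unadjusted p below 0.05, against 14.6%. As HFD replicate 1 was the highest HFD library of Mrc1, its removal favours this p, and nothing is read from it. On CPM, the exact two-sided permutation test gave p from 0.40 for Mrc1 to 1.0 for Hmox1 (not adjusted, 4 against 4 libraries). The diets overlapped in CPM in all 5, where they did not overlap in 6.16% of all genes tested. They also overlapped in the C1q genes and Acp5, from which nothing is read, since these were chosen for uneven HFD counts. Of the 5, Vcam1, Slc40a1 and Axl had a positive log2 fold change, as did 59.7% of all genes tested.

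**Figure D2:**
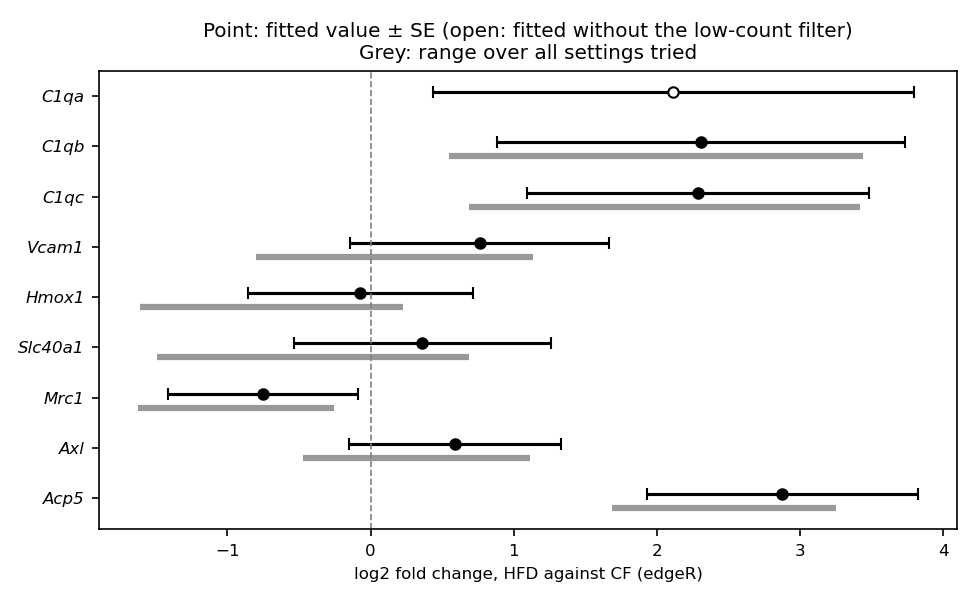
Log2 fold change, HFD against CF (x axis), of each gene (y axis), as the fitted value ± standard error of edgeR (points, open for C1qa, which was fitted without a filter) and as the range over all settings tried (grey bars). The ranges of Vcam1, Hmox1, Slc40a1 and Axl cross 0, while those of C1qb, C1qc and Acp5 stay above it and that of Mrc1 below it.

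Single libraries shared by most of the genes held the extreme values. HFD replicate 1 was the highest of 8 libraries in 7 of the 9, against 26.5% of all genes tested, and the highest HFD library in 8 of the 9, against 34.0%. Since the C1q genes and Acp5 were chosen for such values, nothing is read from their share of these counts, and among the other 5 genes HFD replicate 1 was the highest of 8 for Vcam1, Hmox1, Slc40a1 and Axl. CF replicate 2 was the highest CF library in 7 of the 9, against 27.8%, and of all 8 libraries only for Mrc1, against 5.98%. HFD replicate 4 was highest of 8 only for Acp5, against 18.7%. CF replicate 1 was the lowest CF library alone in 5 of the 9, against 27.6% of all genes. Compared per length of exons, which allows levels of different genes to be set side by side, the CF means were 3.49 ± 2.01 CPM per kb (SD, n = 4) for Hmox1, 2.12 ± 1.04 for Slc40a1, 1.16 ± 0.70 for Mrc1, 0.868 ± 0.501 for Vcam1, 0.805 ± 0.482 for Acp5 and 0.479 ± 0.315 for Axl. The C1q genes came last, with 0.119 to 0.168 CPM per kb. In HFD the order began with Acp5, at 5.88 ± 6.19 CPM per kb (SD, n = 4), followed by Hmox1 at 3.33 ± 3.83 and Slc40a1 at 2.73 ± 3.63. In both diets every gene overlapped the next one in the order. With the length of the longest transcript instead, Slc40a1 came before Hmox1 in both diets, with 4.87 and 3.90 CPM per kb in CF.

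**Figure D3:**
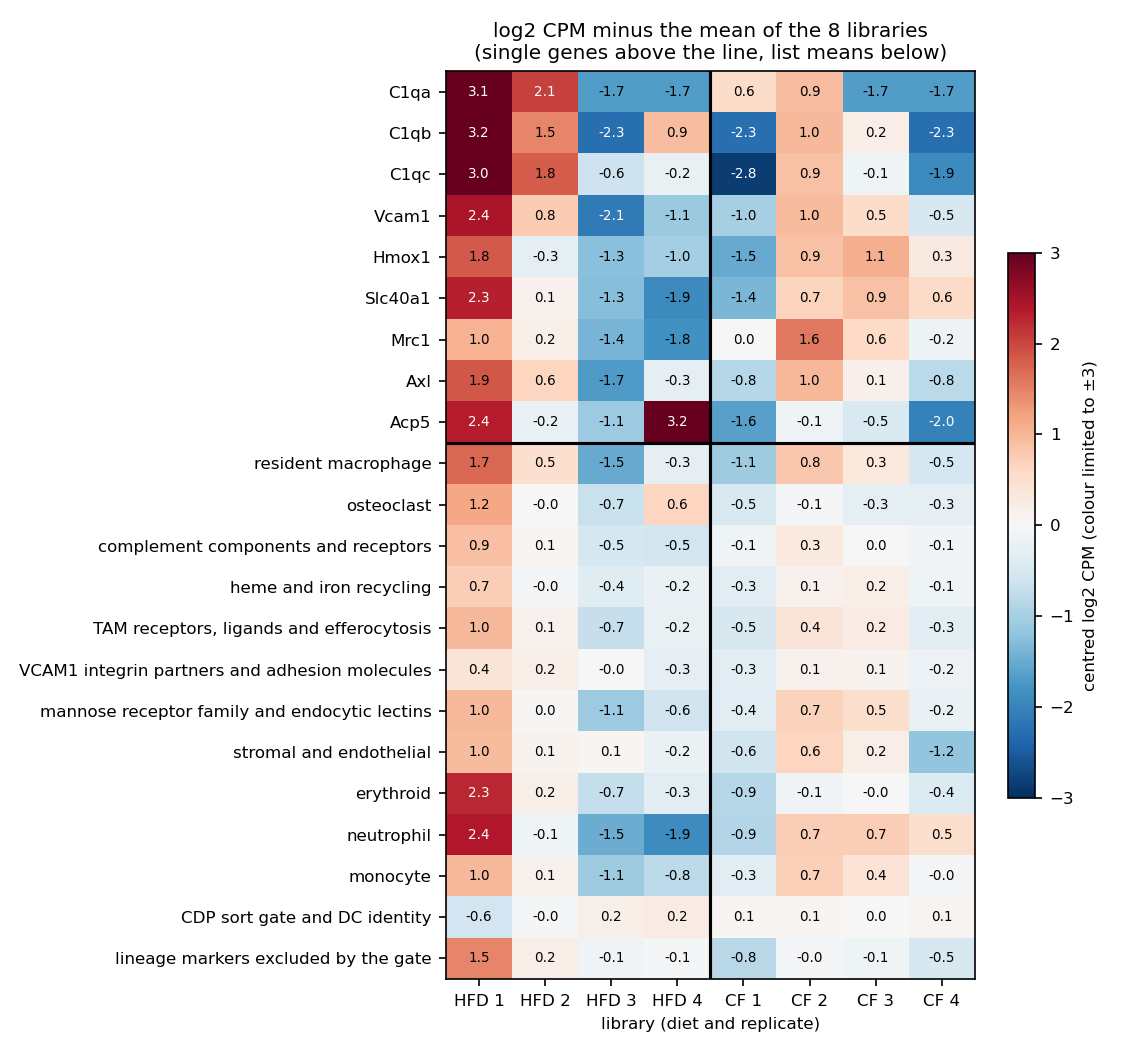
Log2 CPM of each library (columns) minus the mean of the 8 libraries, for the 9 genes (above the line) and for the mean of each list of related genes (below it). Red is above and blue below the mean. The neutrophil and erythroid lists were highest in HFD replicate 1 like most of the 9 genes. The list of the sort gate and DC identity genes was lowest there as a mean, as was Flt3, while Csf1r and Kit were not lowest there.

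Other genes of these cells were read from lists written from general knowledge. Of 18 genes of resident macrophages, 12 were analysed here and 10 tested. Their median log2 fold change was -0.063, against 0.055 for all genes tested, and without HFD replicate 1 it was -0.76, against 0.029. With all libraries, 0 of the 10 were called by edgeR, with 0 at an unadjusted p below 0.05, where the shares of all genes were 0.423% and 8.56%. HFD replicate 1 was highest in 9 of the 12, so that its removal favours a lower median. Mertk, a TAM receptor beside Axl, had 2.44, 0.912, 0 and 0.291 CPM in HFD replicates 1 to 4 and 0, 0.636, 0.0945 and 0 CPM in CF replicates 1 to 4. Of 11767 protein-coding genes tested, Mertk had the pattern most like the mean of the C1q genes over 8 libraries, with a root mean square distance of 0.48 on the log2 scale, where the median gene had 1.68. Sh2d4a (0.62), Aldh1a1 (0.67), Cald1 (0.71) and Gm49369 (0.72) came next. Siglec1, the sialoadhesin of marrow macrophages, had 3.34 CPM in HFD replicate 1, 0 to 0.692 in the other HFD libraries and 0 to 1.45 in CF, with 0 in HFD replicate 3 and CF replicate 1. Adgre1, which encodes F4/80, had 10.9 CPM in HFD replicate 1, 0.577 to 3.18 in the other HFD libraries and 0.827 to 7.00 in CF. Fcgr1, an Fc receptor, had a log2 fold change of -0.91 (adjusted p = 0.82 from edgeR).

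Not every macrophage gene had this order. Cd68, of lysosomes, had 16.8 to 25.6 CPM in all 8 libraries. Cd163, the receptor for hemoglobin bound to haptoglobin, had 9.92 CPM in HFD replicate 1 and 22.2 to 29.7 CPM in the other libraries, so that it was lowest where C1q, Hmox1 and Slc40a1 were highest. The summed CPM of the list spanned 51.3 to 77.4 in HFD and 50.5 to 76.6 in CF.

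Among 18 osteoclast genes, 13 were analysed here and 11 tested. Their median was 0.089 on the log2 scale with all libraries and 0.085 without HFD replicate 1, and edgeR called 0 of the 11 (0 at an unadjusted p below 0.05), beside the same shares of 0.423% and 8.56% of all genes. Ctsk, which encodes cathepsin K that digests bone collagen, had 214, 0, 0 and 817 counts in HFD replicates 1 to 4 and 0, 10, 0 and 4 in CF. In CPM these were 6.87 and 19.8 in HFD replicates 1 and 4 and at most 0.318 elsewhere. Atp6v0d2, a subunit of the proton pump that acidifies the resorption pit, had 50, 22, 0 and 113 counts in HFD and 0, 3, 0 and 3 in CF. Both were highest in HFD replicate 4 and second in HFD replicate 1, like Acp5, and neither passed the filter on low counts. Of the 13 genes, 3 were highest in HFD replicate 4, against 18.7% of all genes tested, and 5 in HFD replicate 1. Among the latter, Car2, the carbonic anhydrase that supplies protons and that erythroid cells also hold, had 186 CPM in HFD replicate 1 and 24.8 CPM in HFD replicate 4. Mmp9, a gelatinase of osteoclasts that neutrophils also hold, had 532 CPM in HFD replicate 1 and 33.0 CPM in HFD replicate 4, its lowest library. Itgb3, the beta 3 integrin, had 56.2, 25.7, 7.77 and 17.1 CPM in HFD and 9.79 to 16.2 CPM in CF, and edgeR gave it 1.10 ± 0.52 (log2 fold change ± standard error, adjusted p = 0.63). Ostm1, a subunit of the chloride transporter of osteoclasts, was at 0.21 (adjusted p = 0.77 from edgeR). Nfatc1, Tcirg1 and Clcn7 differed little between libraries, at 60.9 to 84.8, 63.8 to 72.7 and 10.5 to 16.6 CPM. The genes tested whose pattern was most like Acp5 were Mmp14 (distance 0.93), Nrp2 (1.05), Ephx1 (1.07), Kitl (1.11) and Dab2 (1.12), where the median gene had 1.73.

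**Figure D4:**
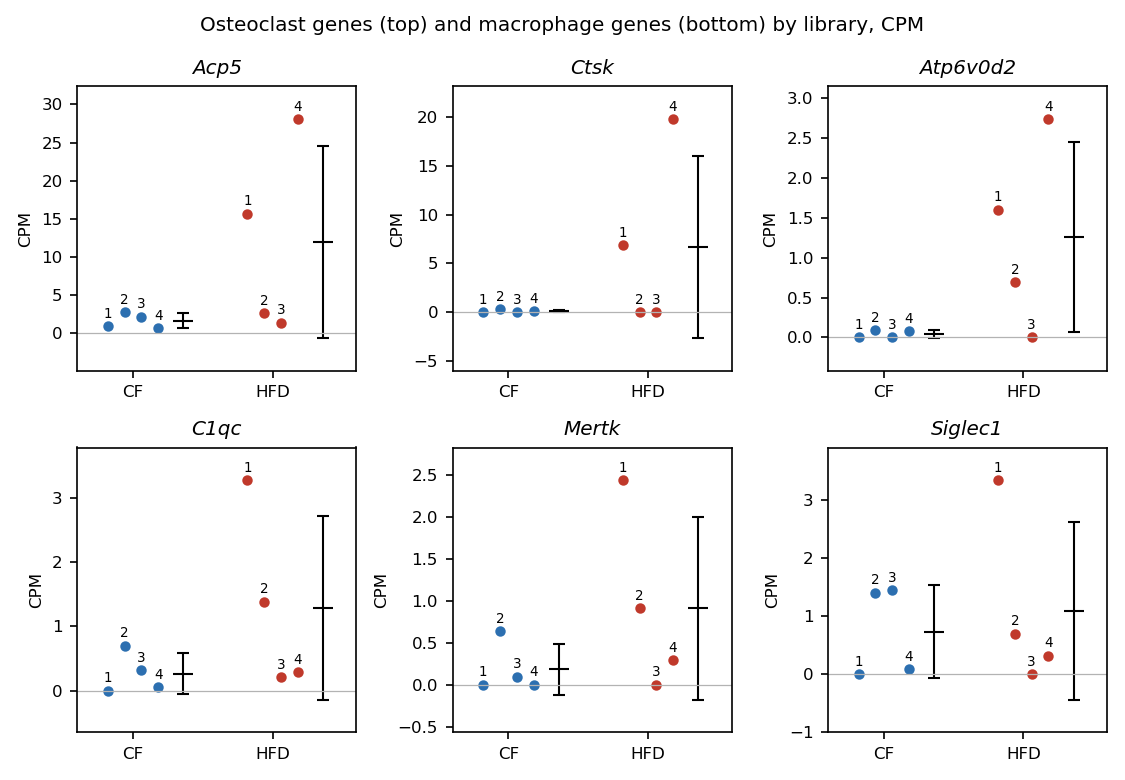
CPM (y axes, linear) of the osteoclast genes Acp5, Ctsk and Atp6v0d2 and the macrophage genes C1qc, Mertk and Siglec1 in 4 CF (blue) and 4 HFD (red) libraries, numbered by replicate, with the mean ± SD beside them. The upper genes shown were highest in HFD replicate 4 and the lower genes shown in HFD replicate 1. Of the 13 osteoclast list genes analysed, 3 were highest in HFD replicate 4 and 5 in HFD replicate 1. Of the 12 macrophage list genes analysed, 9 were highest in HFD replicate 1. Atp6v0d2 was picked after its values were seen.

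Over all 13 lists, edgeR called 0 of the 152 genes tested, with 9 higher and 2 lower in HFD at an unadjusted p below 0.05. These 11 were 7.24% of the list genes, against 8.56% of all genes tested, and the called share over all genes was 0.423%. DESeq2 called 3 (Cd79a, Cdh5 and Siglech, all higher), against 567 of 15837 genes (3.58%), limma voom 0, against 70 of all genes, and the linear model 0 of all genes. Of 20 genes of heme and iron recycling tested, 14 had a positive log2 fold change (median 0.15, and 0.030 without HFD replicate 1), 1 had an unadjusted p below 0.05 and HFD replicate 1 was highest in 15. This gene was Gclm, for glutathione synthesis, with 0.78 (adjusted p = 0.44 from edgeR), and Keap1, the repressor of the oxidative stress factor NRF2, followed at -0.18 (adjusted p = 0.75 from edgeR). The light ferritin gene Ftl1 had 86.5, 31.5, 28 and 31.3 CPM in HFD and 51.2 to 75.9 CPM in CF, and was at -0.57 on the log2 scale (adjusted p = 0.78 from edgeR). Without HFD replicate 1, its highest library, Ftl1 was at -1.12 and was called (adjusted p = 0.018 from edgeR). This removal favours such a value, and nothing is read from the call. The median of 15 complement genes tested was 0.071, and -0.11 without HFD replicate 1. Among them, C5ar1, a receptor for the fragment C5a, had -1.43 and Cd59a, an inhibitor of the attack complex, had 1.55 (edgeR, adjusted p = 0.50 and 0.53). C3, the central complement protein, had 459 CPM in HFD replicate 1 and 17.8 to 142 CPM in the other libraries. Of 13 genes of TAM signalling and efferocytosis tested, 5 had a positive log2 fold change, with a median of -0.15, and -0.23 without HFD replicate 1. The partners of VCAM1, Itga4 and Itgb1, had 253 to 401 and 72.1 to 101 CPM, and were at -0.17 and 0.045 on the log2 scale (adjusted p = 0.87 and 0.97 from edgeR). Itgad, a further integrin that binds VCAM1, was at 0.77 (adjusted p = 0.65 from edgeR), and Ezr, for the membrane linker ezrin, at 0.16 (adjusted p = 0.80 from edgeR). Among 7 lectin receptors tested, whose median was 0.073 and -0.70 without HFD replicate 1, Clec7a had -0.78 and Cd209a had -0.52 (edgeR, adjusted p = 0.85 and 0.83). Of these 7 receptors, 5 were highest in HFD replicate 1, so that its removal favours the lower median.

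HFD replicate 1, where 7 of the 9 genes peaked, also had the highest summed CPM of the neutrophil, erythroid and monocyte lists. Of 15 neutrophil genes, all 15 were highest in HFD replicate 1, and their summed CPM was 21293 there, 1116 to 3914 in the other HFD libraries and 2190 to 7090 in CF. Their median log2 fold change was 0.37, with 13 positive, and without this library it was -1.37, with 0 positive. As all 15 were highest in this library, its removal favours a lower median, and no effect of diet is read from it. Of 13 erythroid genes analysed, 13 were highest in HFD replicate 1, with a summed CPM of 843 there, 127 to 199 in the other HFD libraries and 111 to 197 in CF. Of 13 monocyte genes, 8 were highest in HFD replicate 1, with 2559 summed CPM there, 418 to 1110 in the other HFD libraries and 768 to 1550 in CF. Much of this sum was Lyz2, with 1709 CPM in HFD replicate 1 and 98.0 to 613 CPM in the other libraries. Ms4a6c had its lowest value there, at 53.3 CPM, and Ccr2, Cx3cr1, F13a1 and Klf4 were not highest there either. Stromal and endothelial genes, which matter for Vcam1, were highest there in 3 of 9, and their sum was lowest there, at 66.6 CPM, against 122 to 139 in the other HFD libraries and 90.9 to 109 in CF, while the mean of their log2 CPM was highest there. Cxcl12, of stromal cells, had 4.81 CPM in HFD replicate 1 and 0.362 to 2.54 elsewhere, and Pecam1, of endothelium, was at 0.19 on the log2 scale (adjusted p = 0.92 from edgeR). No neutrophil, erythroid or monocyte gene analysed was at 0 in any library. The part of these cells in the levels of the 9 genes was not tested. Acp5 peaked in HFD replicate 4, where the summed neutrophil CPM was the lowest of all 8 libraries. It was second in HFD replicate 1, where that sum was the highest. Mrc1 peaked in CF replicate 2.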

How the data were processed

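CDPs were sorted, and the authors made libraries with the NuGEN Ovation Solo kit, aligned reads to GRCm38 with HISAT2, kept uniquely mapped pairs and deposited counts per gene. Whether counting used the strand is not given in the sources used here. Of 16119 genes, 16067 matched GENCODE vM21. Genes were kept by filterByExpr (a cut of 0.288 CPM in 4 libraries), which left 15837, and HFD and CF (4 libraries each) were compared with the quasi-likelihood test of edgeR 4.0.16 (R 4.3.3) with TMM factors and Benjamini-Hochberg adjustment over all genes. Alternatives were DESeq2 1.42.0, limma 3.58.1, other scalings and filters, a replicate block and leaving out libraries. Patterns were compared by the root mean square distance of log2 CPM (prior count 2) centred over libraries. The code was tested on simulated data. The members and lists were chosen with earlier results of these data known. Named were the members, the defining markers (Dcstamp was not analysed here), the 2 genes of each list with the lowest p and the 5 genes nearest in pattern to C1q and to Acp5. Ftl1, C3, Irf8, Cd163, Atp6v0d2, Nfatc1, Tcirg1, Clcn7, Car2, Itga4, Itgb1, Itgax, Lyz2, Ms4a6c, Cx3cr1 and Klf4 were named after their values were seen. So were the genes named as called with DESeq2 or without HFD replicate 1. Those called only without both libraries were not all named. p-values measure the spread between these libraries, and Poisson intervals cover counting error only.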

Additional observations from a re-analysis of the deposited data

Results flagged for a closer look

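In CF replicate 1, Slc40a1 had 2.48 on the log2 CPM scale, while the other CF libraries had 4.43 to 4.74. The gap was 0.86 of the range of the group, above the critical value of Dixon's test for 4 samples. The mean of the neutrophil list was set apart in the same library, at 6.01 against 7.41 to 7.61 in the other CF libraries (gap 0.88 of the range). These were 2 of the 44 groups of 4 libraries examined, over the 9 genes and 13 lists, and chance flags about 1 in 20. The part of neutrophil transcripts in the value of Slc40a1 was not tested.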

How the results depend on the processing

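The log2 fold change ranged from 0.55 to 3.44 for C1qb and 0.69 to 3.42 for C1qc (18 fits) and from 1.69 to 3.25 for Acp5 (19 fits). As these genes were selected on the same counts, their sign is no sign of stability. Mrc1 was negative in 19 fits. With at least 1 CPM asked for in 4 libraries, C1qb and C1qc gave no value. Leaving out each library in turn moved Vcam1 from -0.55 to 1.14, Hmox1 from -1.29 to 0.23, Slc40a1 from -1.18 to 0.69 and Axl from -0.25 to 1.11, with the lowest value of each without HFD replicate 1. The value was -0.088 for Vcam1 and -0.43 for Slc40a1 with limma voom, -0.31 for Slc40a1 with a linear model of log2(CPM + 1), and 0.061 for Hmox1 with library size alone. With HFD replicate 1 and CF replicate 1 both left out, a choice made after the data were seen, values were -0.80 for Vcam1, -1.49 for Slc40a1, -0.47 for Axl and -1.61 for Hmox1. There edgeR called Hmox1 (adjusted p = 0.042, otherwise 0.35 or more), but as its highest and its lowest library were those taken out, nothing is read from this call or from the counts of calls below in that setting. In HFD replicate 1, C1qc had 0.766 times the level of C1qb per length with the union of exons and 1.23 times with the longest transcript. Over all genes, 67 were called (edgeR), 108 with library size alone, 567 with DESeq2, 388 without the 2 libraries, 0 among protein-coding genes alone and 0 with the linear model (285 higher and 252 lower, and 648 higher and 809 lower, at an unadjusted p below 0.05). Leaving out each library gave 0 to 200, the highest without HFD replicate 1. Of the list genes, 0 were called, 3 with DESeq2, 0 to 3 with 1 library left out (3 without HFD replicate 1) and 8 without both libraries. The 3 without HFD replicate 1 were Siglech, Ftl1 and Itgax. Itgax was at 0.77 there (adjusted p = 0.0495 from edgeR), higher in HFD. HFD replicate 1 was its lowest HFD library, so that the removal favours this value. The cause of these shifts was not tested.

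The labels give both diets the same replicate numbers. Deviations of same-numbered libraries correlated from -0.44 to -0.078, so that no pairing by number was seen. This check cannot exclude a pairing, since differences between single libraries can hide it. With a replicate block, 0 genes were called (236 higher and 675 lower at an unadjusted p below 0.05), Vcam1 was at -0.17 and Slc40a1 at -0.74. Counts limit what can be said of C1q, with at most 102 counts for a gene in a library.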

Other observations

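Genes of other lineages were also found. Of 8 lineage marker genes tested, all 8 had a positive log2 fold change (median 0.90), against 59.7% of all genes, and 6 were highest in HFD replicate 1. Their sum was 128 CPM there, 27.3 to 35.2 CPM in the other HFD libraries and 24.1 to 37.0 CPM in CF, and without HFD replicate 1 the median was 0.52, with 6 of 8 positive against 54.2% of all genes. Of 13 erythroid genes, all 13 were positive (median 1.16), but without HFD replicate 1 only 8 of 13 were, with a median of 0.046. Epor, the erythropoietin receptor, had 9.34 CPM in HFD replicate 1, 0.682 to 2.55 CPM in the other HFD libraries and 0.390 to 1.13 CPM in CF. Its log2 fold change was 2.29 with all libraries and 0.99 without HFD replicate 1 (adjusted p = 0.44 and 0.45 from edgeR). Rhag, of the Rhesus complex of erythrocytes, had 1.53 (adjusted p = 0.64 from edgeR). Cdh5, the cadherin of endothelial cells, had 1.61 (adjusted p = 0.26 from edgeR), and Siglech, a receptor of plasmacytoid DCs, had 1.47 (adjusted p = 0.20 from edgeR). Without HFD replicate 1, the lowest HFD library of Siglech, Siglech was at 1.75 and was called (adjusted p = 0.016 from edgeR). This removal favours such a value, and nothing is read from the call. Irf8, a transcription factor of DC progenitors, had 251 CPM in HFD replicate 1, its lowest library, and 372 to 674 CPM in the others. In the neutrophil list, Fcnb and Chil3 were at 0.81 and 0.82 on the log2 scale (adjusted p = 0.90 and 0.91 from edgeR). Among monocyte genes, Ccr2, F13a1 and Ly6c2 were at -0.44, -0.32 and 0.10 (adjusted p = 0.73, 0.85 and 0.98 from edgeR). Kitl, the KIT ligand of stroma, was at 1.68, and Id2, a regulator of DC subsets, at -0.45 (adjusted p = 0.63 and 0.42 from edgeR). Of the lineage markers, Cd79a of B cells was at 0.88 and Cd4 of T cells at 1.87 (adjusted p = 0.17 and 0.41 from edgeR).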
